A study of Mus musculus with 7 samples.

Results

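The clustered protocadherins alpha, beta and gamma are cell-surface proteins of the cadherin superfamily, encoded by tandem arrays on mouse chromosome 18. Members were all RefSeq genes of GRCm38 on that chromosome whose symbol begins with Pcdha, Pcdhb or Pcdhg, which gave 58 of 49993 genes. There were 14 alpha, 22 beta and 22 gamma genes, of which 57 are protein-coding and Pcdhgb8 is annotated as a transcribed pseudogene. The span examined ran from 1 kb before Pcdha1 to 1 kb after the last gamma gene (chromosome 18, 36929285 to 37842873, mm10), a stretch of 913.6 kb that held 75 of the 133337 regions enriched for 5-methylcytosine (5mC).

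Neurons from hippocampi of C57BL/6J mouse embryos at E18.5 were kept for 11 days in vitro in medium with AraC, a drug that kills dividing cells. At that age some cultures received 55 mM KCl, which depolarises neurons, for 4 h, and the others were untreated. DNA fragments carrying 5mC were captured with an antibody and sequenced (MeDIP-seq) in 3 libraries per group, and a pooled input was not analysed here. Whether libraries stem from different cultures or animals is not in the labels. All p-values therefore measure only how far these libraries spread, which may be technical.

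In the alpha and gamma arrays each gene begins with its own large first exon, which encodes the whole extracellular part and is spliced to a set of exons that all genes of the array share, while each beta gene is a single exon. Neurons switch on different combinations of these genes by promoter choice, and the proteins bind copies of themselves on neighbouring membranes, a basis of self-avoidance of dendrites and axons. The C-type genes at the end of the alpha and gamma arrays are used more uniformly among neurons, and DNA methylation, placed in part by Dnmt3b, is known to bear on the choice among the others.

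Within this study, 5mC enrichment in the cluster lay mainly downstream of the starts of the alpha, beta and gamma-B genes, and seldom after those of gamma-A or C-type genes. Of the 75 regions, 54 had their summit, the point of highest enrichment, 0 to 2500 bp after the start of a member, and 21 lay elsewhere. Each region was then scored in each library by the height of its highest peak, or as not called. By position of the summit, 23 regions fell in the alpha array, 24 in beta and 19 in gamma, with 2 between alpha and beta and 7 between beta and gamma. Regions called in all 6 libraries numbered 15 in alpha, 14 in beta, 7 in gamma and 2 between beta and gamma.

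**Figure D1:**
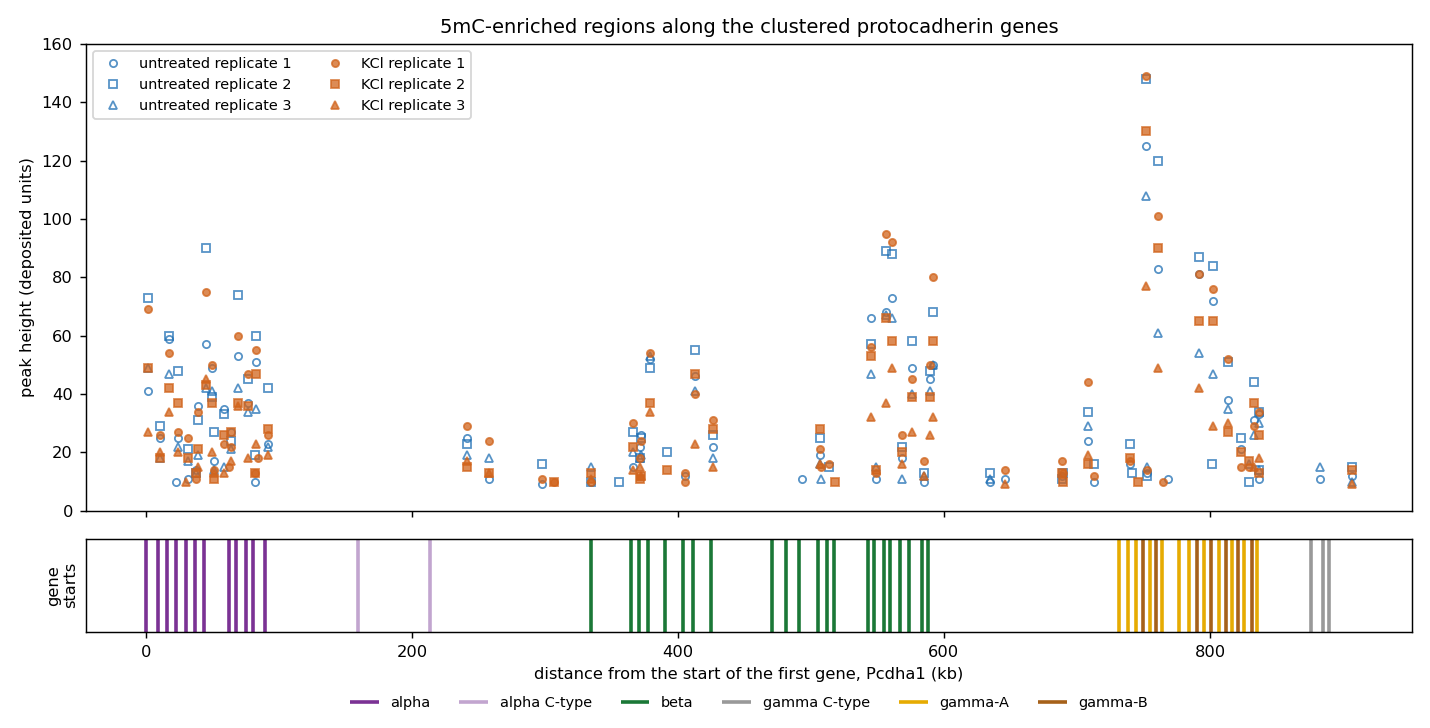
Peak heights of all 75 cluster regions (upper panel, vertical axis in the units deposited, 1 symbol per library that called the region) along the distance in kb from the start of Pcdha1 (horizontal axis), with the starts of the 58 genes as lines below, coloured by subfamily. Symbols stand over the dense blocks of alpha, beta and gamma starts, and few stand in the gaps or over the C-type genes.

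Many cluster regions were shared by all libraries. Of the 75, 38 (50.7%) were called in all 6 libraries and 13 (17.3%) in 1 library, against 20.5% and 29.3% of all regions. The cluster regions called in all 6 had a median mean height of 37.5 and a median length of 686.5 bp, against 24 and 492 bp for all regions called in all 6. These shares are descriptions with no test. Across these 38 regions the order of heights was similar in every pair of libraries, with Spearman coefficients from 0.835 to 0.938 over 15 pairs that share the same regions.

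Most regions shared by all libraries had their summit in a band downstream of a gene start. Of the 32 regions called in all 6 libraries within 2500 bp of a start, 30 had their summit between 1288 bp (Pcdha1) and 1959 bp (Pcdhga12) after it. The exceptions were the region of Pcdhb1, at 165 bp, and the nearer of 2 regions of Pcdhb3, at 726 bp, and the median over the 32 was 1629 bp. In 28 of the 32 the summits of all 6 libraries lay within 100 bp of each other. Counted per gene, each library had a summit 1000 to 2000 bp after the start in 31 to 36 of the 58 members (53.4% to 62.1%), and in none of them in the 1000 bp before the start. Among 17273 other protein-coding genes whose start could be told from the annotation, 2.08% to 4.73% had a summit 1000 to 2000 bp after it and 0.961% to 2.72% in the 1000 bp before. This window was chosen after the positions were seen, so no test is given. The start is that of the gene record, and a record that begins at a later base shortens the distance.

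**Figure D2:**
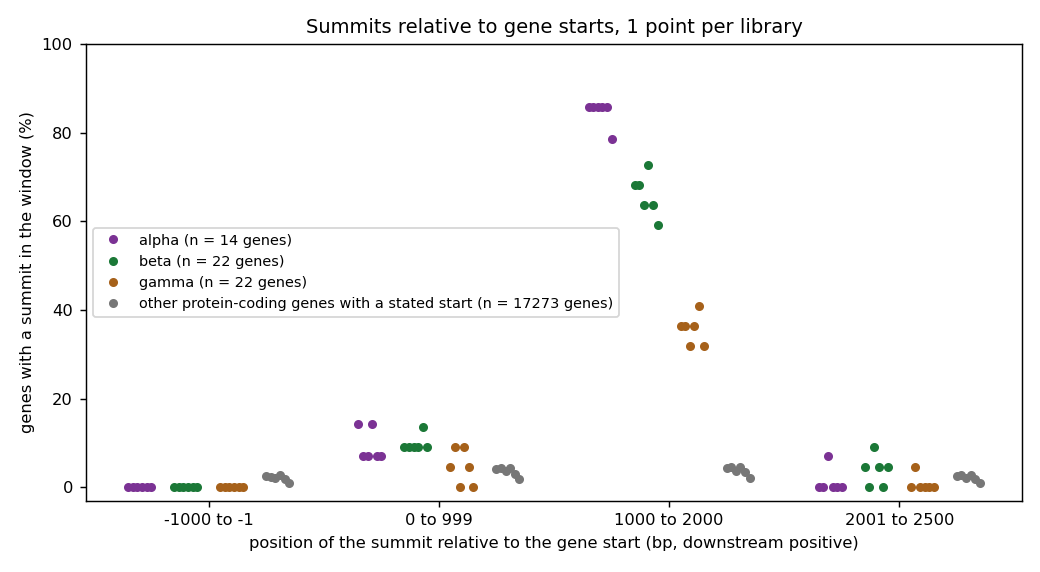
Percentage of genes with a summit in 4 windows around the gene start (horizontal axis, bp, downstream positive), 1 point per library, for 14 alpha, 22 beta and 22 gamma genes and 17273 other protein-coding genes. In the window from 1000 to 2000 bp the alpha points lie between 78.6% and 85.7%, beta between 59.1% and 72.7%, gamma between 31.8% and 40.9%, and other genes below 5%.

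All 12 regular alpha genes, Pcdha1 to Pcdha12, had a region within 2500 bp of the start in every library. Their regions were long, with a median of 1058 bp among the 11 genes whose highest region was called in all 6 libraries. Pcdha7 had the highest alpha region (36974953 to 36976057), with heights of 57, 90 and 42 untreated and 75, 43 and 45 with KCl. Pcdha1 (36931321 to 36932544) had 41, 73 and 49 untreated and 69, 49 and 27 with KCl. Pcdha9 (36998982 to 37000356), the longest region at 1375 bp, had 53, 74 and 42 untreated and 60, 37 and 36 with KCl. In these 3 genes untreated replicate 2 was the highest library, and the groups overlapped.

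Pcdha3 (36947403 to 36948349) reached 59, 60 and 47 untreated against 54, 42 and 34 with KCl, and Pcdha11 (37012432 to 37013058) 51, 60 and 35 against 55, 47 and 23. The groups overlapped here too, and KCl replicate 3 was the lowest library in both genes. Mean heights over the 6 libraries ran from 22.7 at Pcdha2 to 58.7 at Pcdha7 among the 11 genes, and the 12th gene, Pcdha5, had a lower region called in 5 libraries (11, 21 and 17 untreated, 25 and 18 with KCl) and in KCl replicate 3 a region of height 10 nearer its start. Between Pcdha7 and Pcdha8, 3 further regions called in all 6 libraries lay in the pseudogene Gm36858. Their heights spanned 11 to 50.

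Both alpha C-type genes, Pcdhac1 and Pcdhac2, had no region within 2500 bp of the start in any library. Pcdhac2 is known for its part in the spacing of serotonergic axons. From 2500 bp after the start of Pcdha12 to the end of the alpha array, 166.2 kb held 2 regions. One lay 27719 bp after the start of Pcdhac2 (37171282 to 37171654), with heights of 25, 23 and 19 untreated and 29, 15 and 17 with KCl. The other lay at the end that the alpha genes share (37187838 to 37188356), with heights of 11 and 18 in untreated replicates 1 and 3 and 24, 13 and 13 with KCl, and it was not called in untreated replicate 2. Their heights lay in the lower part of the range seen at the alpha genes, near those of Pcdha2 and Pcdha5, and no group stood apart.

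**Figure D3:**
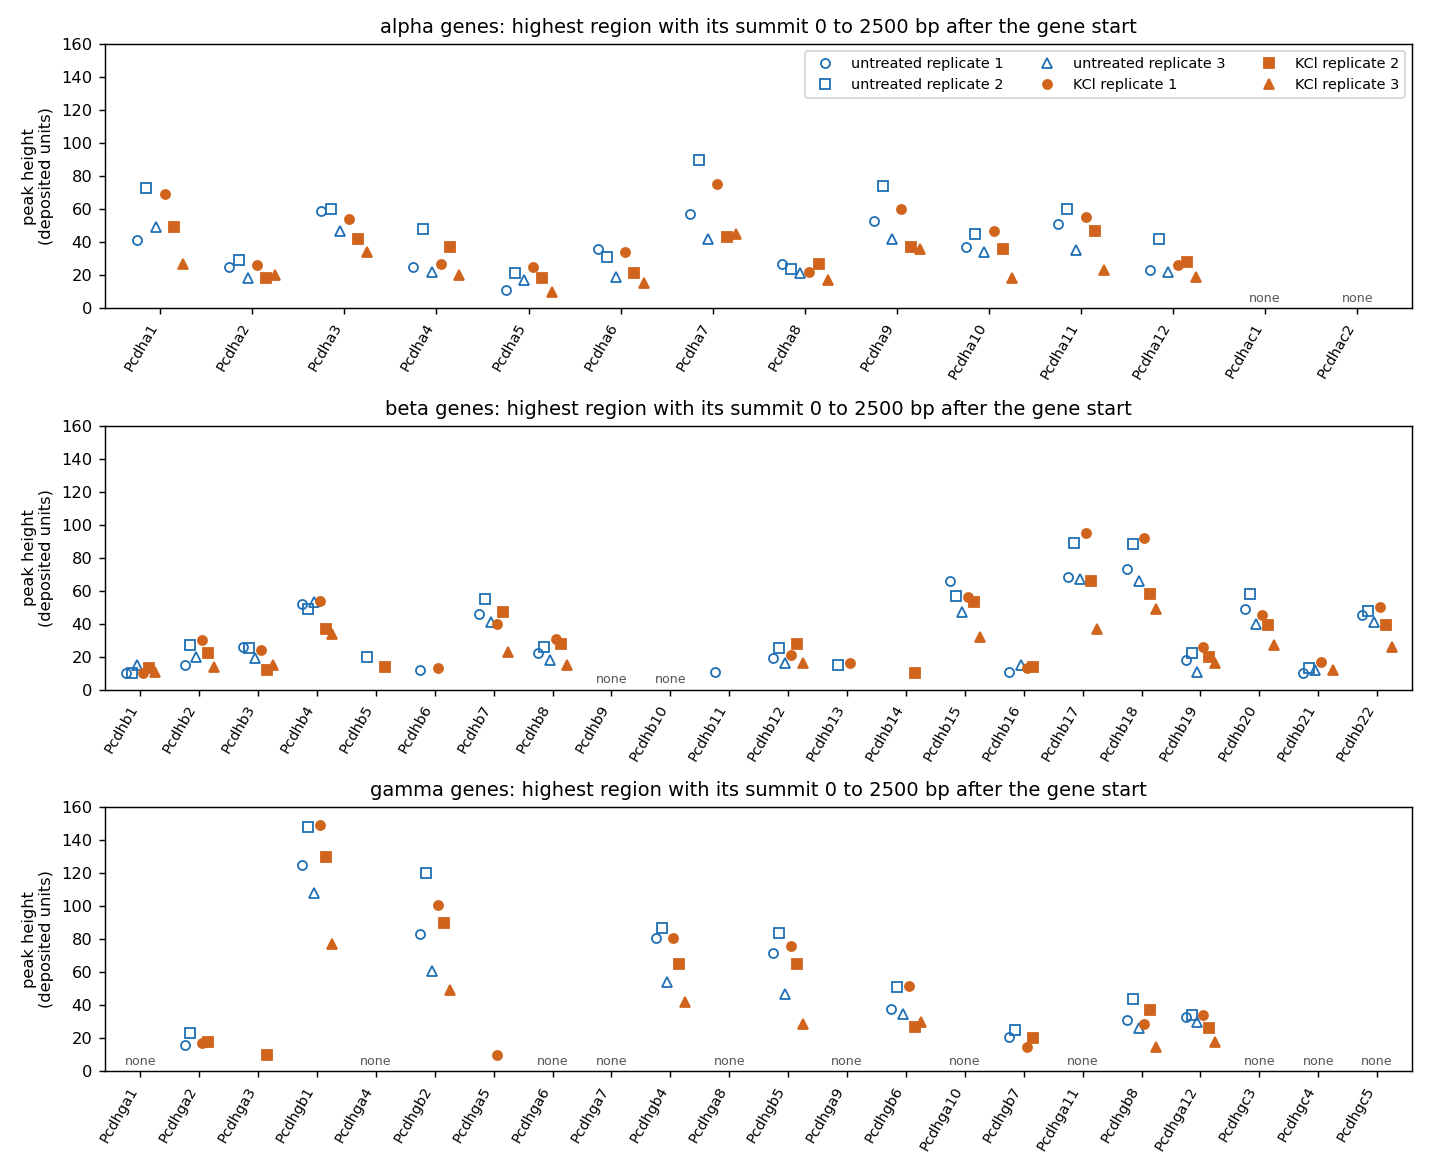
Height of the highest region whose summit lies 0 to 2500 bp after the start of each of the 58 genes (vertical axis, units as deposited; genes in chromosome order; open blue symbols untreated, filled orange symbols KCl, shapes for replicates). "None" marks a gene with no such region in any library, as for the 5 C-type genes, 8 gamma-A genes, Pcdhb9 and Pcdhb10; Pcdhgb1 is highest, from 77 to 149.

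Beta genes were uneven along their array. Of the 22, 13 had a region within 2500 bp of the start in every library, 7 in some libraries, and Pcdhb9 and Pcdhb10 in none. Their weakest stretch ran from Pcdhb9 to Pcdhb14, where Pcdhb12 was called in all 6 libraries, Pcdhb13 in 2, and Pcdhb11 and Pcdhb14 in 1 each. The 2 highest beta regions were neighbours. Pcdhb17 (37486231 to 37487153) had heights of 68, 89 and 67 untreated and 95, 66 and 37 with KCl, and Pcdhb18 (37490529 to 37491531) had 73, 88 and 66 untreated and 92, 58 and 49 with KCl. In both, KCl replicate 1 was the highest library and KCl replicate 3 the lowest, so the KCl group enclosed the untreated one.

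Pcdhb15 (37474821 to 37475472) had 66, 57 and 47 untreated and 56, 53 and 32 with KCl. Pcdhb4 (37308727 to 37309868) had 52, 49 and 53 untreated and 54, 37 and 34 with KCl. Pcdhb20 (37505651 to 37506439) had 49, 58 and 40 untreated and 45, 39 and 27 with KCl. The groups overlapped in all 3 genes, and KCl replicate 3 was the lowest library in each. Pcdhb1, which stands apart at the start of the array, was also apart in position: its region (37265017 to 37265406) peaked 165 bp after the start, at 10, 10 and 15 untreated and 10, 13 and 11 with KCl. The gene record of Pcdhb1 spans 2457 bp, and where its transcript begins was not examined here. A further strong region (37521557 to 37522255) lay just past the end of Pcdhb22, with 50, 68 and 50 untreated and 80, 58 and 32 with KCl, again with the KCl libraries on both sides of the untreated ones.

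Gamma-A and gamma-B genes alternate along the gamma array and differed in how many had a region. Of 7 gamma-B genes, 6 had one within 2500 bp of the start in every library, and Pcdhgb7 had one in 4 libraries. Of 12 gamma-A genes, only Pcdhga12 had one in every library, Pcdhga2 had one in 4 libraries, Pcdhga3 and Pcdhga5 had one in a single library, and the other 8 had none. Per library, 6 or 7 of 7 gamma-B genes and 1 to 3 of 12 gamma-A genes had a region. This contrast was noticed after the values were seen and is given with no test. The genes of a subfamily are close in sequence, and the treatment of reads that match several copies is not stated in any source used here, so a call or a height at a single gene is uncertain to that extent.

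The regions of Pcdhgb1 and Pcdhgb2, the first gamma-B genes of the array, had the highest mean heights of the cluster, and Pcdhgb4 came after them and the beta genes Pcdhb18 and Pcdhb17. Pcdhgb1 (37681663 to 37682316) had heights of 125, 148 and 108 untreated and 149, 130 and 77 with KCl, and 0.063% of all 133337 regions had a higher mean. Pcdhgb2 (37691337 to 37691815) had 83, 120 and 61 untreated and 101, 90 and 49 with KCl. Pcdhgb4 (37721778 to 37722445) had 81, 87 and 54 untreated and 81, 65 and 42 with KCl. In each of these, KCl replicate 3 was the lowest library, and the other KCl libraries lay within or just above the untreated range.

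Further along the array the heights were lower. Pcdhgb5 (37732480 to 37733195) had 72, 84 and 47 untreated and 76, 65 and 29 with KCl, and Pcdhgb6 (37743477 to 37744181) had 38, 51 and 35 untreated and 52, 27 and 30 with KCl. Mean height over the 6 libraries went down with each gene from Pcdhgb1 (122.8) through Pcdhgb2 (84.0), Pcdhgb4 (68.3) and Pcdhgb5 (62.2) to Pcdhgb6 (38.8). The descent ended at Pcdhgb7, which was called in 4 libraries at 15 to 25 and had a mean of 13.5 with 0 where not called, below the 30.3 of the pseudogene Pcdhgb8 that follows it. In KCl replicate 3 the order of Pcdhgb5 and Pcdhgb6 was reversed, at 29 and 30. Pcdhga12, the last gamma-A gene, had 33, 34 and 30 untreated and 34, 26 and 18 with KCl (37767236 to 37767791). This order, too, was noticed after the values were seen.

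None of the gamma C-type genes Pcdhgc3, Pcdhgc4 and Pcdhgc5 had a region within 2500 bp of the start in any library. Pcdhgc4 is the isoform known to be needed for the survival of postnatal neurons. From 2500 bp after the start of Pcdhga12 to the end of the gamma array, 73.8 kb held 2 regions. One, 6750 bp after the start of Pcdhgc3, was called in untreated replicates 1 and 3 at heights of 11 and 15. The other, 17644 bp after the start of Pcdhgc5 (37836960 to 37837380), had 12, 15 and 10 untreated and 14 and 9 in KCl replicates 2 and 3. Unlike the alpha array, the gamma array had no region within 1 kb of the end its genes share. A height comes from a whole culture, so a larger share of methylated gene copies and more methylated sites per copy cannot be told apart.

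The span as a whole was denser in regions than the genome in every library. It held 64.6, 63.5 and 54.7 regions per Mb in the untreated libraries and 66.8, 59.1 and 47.1 in the KCl libraries, against 32.5, 32.8 and 27.3 and 35.1, 22.8 and 13.0 over chromosomes 1 to 19 and X. The difference was 32.0 regions per Mb on average and was positive in 6 of 6 libraries (exact sign-flip permutation test within libraries, two-sided, p = 0.03125, the smallest that 6 libraries can give). This test measures the spread between libraries on 1 genome, and the content of CpG sites, on which MeDIP depends, was not matched. The 4 Hox clusters, tandem arrays of developmental regulators with 39 genes, held 17.0 ± 7.56 regions per Mb and the protocadherin span 59.3 ± 7.37 (SD, n = 6 libraries). The ratio of span to genome was 1.90 to 2.00 in the untreated libraries and KCl replicate 1, 2.59 in KCl replicate 2 and 3.62 in KCl replicate 3, the library with the fewest regions overall.

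Alpha, beta and gamma were compared with each other by regions per 100 kb of array in the same libraries. The means were 7.28 ± 0.569 in alpha, 6.82 ± 0.641 in beta and 6.85 ± 1.34 in gamma (SD, n = 6 libraries). None of the 3 differences passed the exact sign-flip permutation test with Benjamini-Hochberg adjustment over the 3 (adjusted p = 0.188 for beta against alpha, 0.469 for gamma against alpha, 0.969 for gamma against beta). When array length covered by intervals was counted in place of regions, the mean differences were -1150 bases per 100 kb for beta minus alpha and -1392 bases per 100 kb for gamma minus alpha, both with an exact permutation adjusted p of 0.0469. The same p was reached when each library kept its 34834 highest intervals. The alpha array was thus higher in covered length and in regions per 100 kb among those 34834 intervals. Its regions were not the tallest, with a highest mean height of 58.7 against 71.0 in beta and 122.8 in gamma-B. A difference in the number of all regions called was not detectable with 6 libraries. The exact sign-flip permutation test cannot go below p = 0.03125 before adjustment, and it measures the spread between libraries on 1 genome.

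With KCl, the number of cluster regions called did not differ beyond the spread of the libraries. It was 59, 58 and 50 untreated and 61, 54 and 43 with KCl, or 55.7 ± 4.93 against 52.7 ± 9.07 (SD, n = 3 per group). The two-sided exact permutation test gave p = 0.7, where 0.1 is the smallest that 3 against 3 libraries allow. KCl replicate 1 was the highest and KCl replicate 3 the lowest of the 6. As a share of each library's own regions, the cluster made up 0.0689%, 0.0672% and 0.0696% untreated and 0.0660%, 0.0900% and 0.126% with KCl (exact permutation p = 0.4). The groups overlapped, and the 2 highest shares came from the KCl libraries that called the fewest regions. The difference in share was 0.0253 percentage points. It came to 0.00946 without KCl replicate 3 and rose to 0.0393 when KCl replicate 1 was left out (exact permutation p = 0.1, the smallest possible). KCl replicate 3 did not call 32 of the 75 regions, whose mean height in the other libraries that called them was 10 to 20.25 with a median of 13, while the 43 it called had a median of 32.6 in the other libraries.

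**Figure D4:**
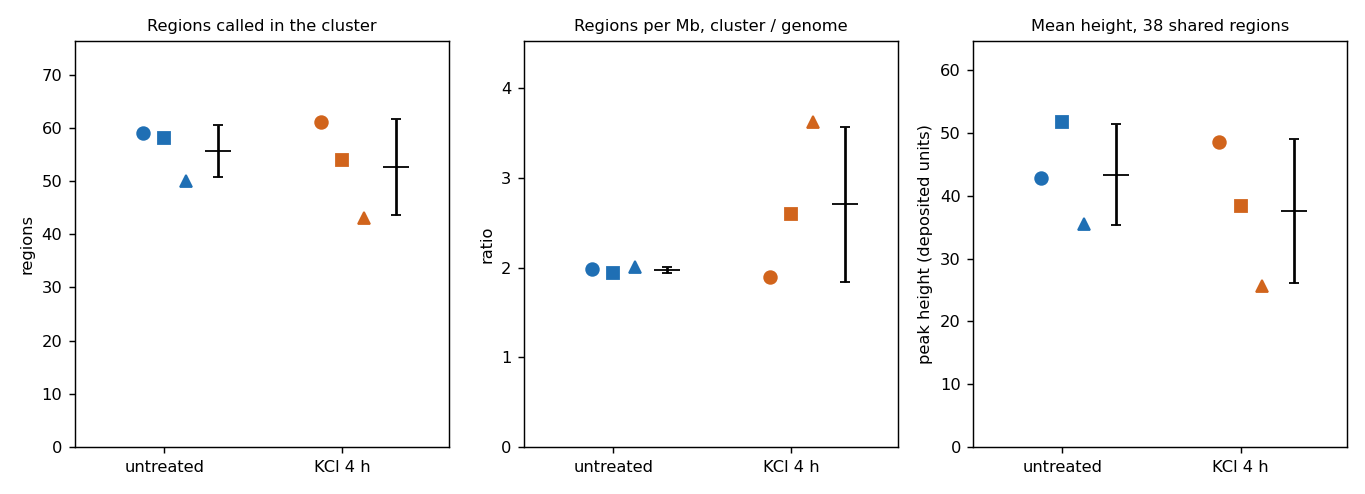
Per-library values for untreated and KCl cultures (circles, squares and triangles are replicates 1, 2 and 3; bars are the mean and SD of 3 libraries): cluster regions called, the ratio of regions per Mb in the cluster span to chromosomes 1 to 19 and X, and the mean height of the 38 regions called in all 6 libraries. The groups overlap in all 3 panels; KCl replicate 3 has the fewest regions (43), the highest ratio (3.62) and the lowest mean height (25.7).

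In the heights of the 38 shared regions the groups overlapped. Their mean was 42.8, 51.7 and 35.6 untreated and 48.7, 38.4 and 25.7 with KCl, or 43.4 ± 8.08 against 37.6 ± 11.5 (SD, n = 3 each). The difference of -5.79 became 0.263 without KCl replicate 3. Set against all regions called in all 6 libraries of the same library, the cluster's mean log2 height was above them by 0.44, 0.54 and 0.33 untreated and by 0.42, 0.47 and 0.40 with KCl. These values overlapped, with means of 0.44 ± 0.11 and 0.43 ± 0.03. Starts with a region within 1 kb on either side numbered 8.62%, 8.62% and 5.17% of the members untreated and 10.3%, 8.62% and 5.17% with KCl (exact permutation p = 1).

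No single cluster region passed the test for a change with KCl. The test, limma on log2(height + 1), covered the 20537 regions of the genome that were called in all 6 libraries and had a mean height of at least 18.7, and 35 of the 38 shared cluster regions were among them. None of the 35 had an adjusted p under 0.05, as for 0% of all tested regions, and the lowest adjusted p from limma was 0.932. At an unadjusted p under 0.05, 0 cluster regions were lower, against 1.12% of all tested regions, and 0 regions anywhere were higher. With each library centred on its median, 1 of the 35 was higher, against 1.97% of all tested regions, and 0 were lower, against 1.67%. That 1 region, at Pcdhb19, passed the limit on mean height only through the KCl group. In 0 of the 35 did all 3 KCl heights lie below all 3 untreated heights, against 4.14% of all tested regions, and in 0 did they lie above, against 0.0292%. These counts say nothing of regions that lost a call, which were outside the test.

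Since heights were lower with KCl in 90.6% of all tested regions, with a median log2 change of -0.25, each change is given relative to that median as a relative log2 change. This shift rested on single libraries: leaving out KCl replicate 3 it was -0.017, and leaving out KCl replicate 1 it was -0.46. Of the 35 cluster regions, 16 lay above the median of all regions and 19 below, with a median relative log2 change of -0.012. It was -0.00076 over 14 alpha regions (7 above, 7 below), -0.014 over 12 beta regions (5 above, 7 below) and -0.0093 over 7 gamma regions (3 above, 4 below). Without untreated replicate 2 the split was 23 above and 12 below. Alpha changes ran from -0.12 to 0.12 and gamma changes from -0.12 to 0.11, while beta changes ran from -0.33 to 0.54. Both beta extremes came from regions that passed the height limit only through their higher group.

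**Figure D5:**
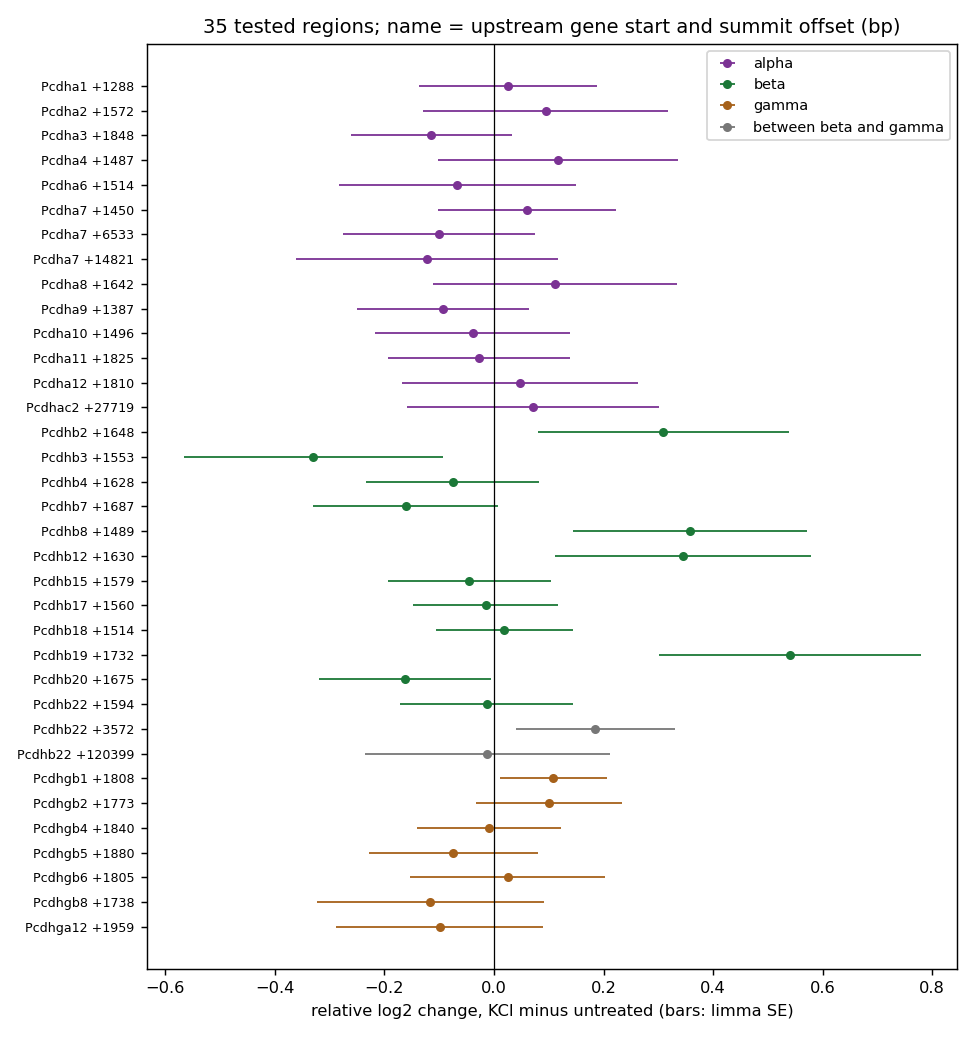
Relative log2 change of the 35 tested cluster regions, KCl minus untreated (horizontal axis; points coloured by array, bars are the SE from limma after median centring), in chromosome order and named by the upstream gene and the distance of the summit from its start in bp. Alpha and gamma points lie close to 0. The widest values are in beta, from -0.33 at Pcdhb3 to 0.54 at Pcdhb19, both regions that passed the height limit only through their higher group.

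The extremes among beta genes came from low regions, each tested only through its higher group. The height limit of 18.7 lay between the group means, 17 untreated and 20.7 with KCl for Pcdhb19 and 23.3 and 16 for Pcdhb3. Pcdhb19 (37498389 to 37499285) had heights of 18, 22 and 11 untreated and 26, 20 and 16 with KCl. Its relative log2 change was 0.54 (SE 0.24 from limma after median centring). In heights as deposited its log2 change was 0.29 (SE 0.35, limma adjusted p = 0.932). Pcdhb3 (37302075 to 37302614) had 26, 25 and 19 untreated and 24, 12 and 12 with KCl. Its relative log2 change was -0.33 (SE 0.24 after median centring), and as deposited its log2 change was -0.58 (SE 0.35, limma adjusted p = 0.932). The groups overlapped in both. The relative log2 change of Pcdhb3 was -0.159 without KCl replicate 2. That of Pcdhb19 was 0.360 to 0.661 with 1 library left out, except without KCl replicate 1, where Pcdhb19 fell below the height limit and was not tested. Its mean height over all 6 libraries, 18.8, was just past that limit. After median centring Pcdhb19 was the 1 cluster region under the unadjusted 0.05, beside the 1.97% of all tested regions given above. It had an unadjusted p of 0.0280 and an adjusted p of 1.00 in limma.

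In heights as deposited, before the shift was taken out, 4 of the 35 regions had a higher mean log2 height with KCl. They were Pcdhb19 and the regions of Pcdhb8, Pcdhb12 and Pcdhb2, with relative log2 changes of 0.36, 0.35 and 0.31. Pcdhb8 (37356455 to 37357054) had 22, 26 and 18 untreated and 31, 28 and 15 with KCl. Pcdhb12 (37436907 to 37437542) had 19, 25 and 16 untreated and 21, 28 and 16 with KCl. Pcdhb2 (37296205 to 37296746) had 15, 27 and 20 untreated and 30, 22 and 14 with KCl. Groups overlapped in each. Single libraries set the size of these changes, which for Pcdhb12 was 0.165 without KCl replicate 2 and reached 0.563 when KCl replicate 1 was left out, and was 0.110 for Pcdhb2 without untreated replicate 1.

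With Pcdhb3, the regions of lowest p among those with a lower mean were Pcdhb20 and Pcdhb7 (relative log2 change of -0.16 each), the Gm36858 region 14821 bp after the start of Pcdha7 (-0.12) and the pseudogene Pcdhgb8 (-0.12). Pcdhb7 (37343047 to 37343720) had 46, 55 and 41 untreated and 40, 47 and 23 with KCl. The Gm36858 region (36988551 to 36989303) had 35, 33 and 15 untreated and 23, 26 and 13 with KCl. Pcdhgb8 (37763210 to 37763774) had 31, 44 and 26 untreated and 29, 37 and 15 with KCl. Each KCl group reached into the untreated range. All 4 changes moved by over 1.5 times with 1 library left out: Pcdhb20 was -0.103 without KCl replicate 1, and Pcdhb7 ranged from -0.352 with KCl replicate 2 left out to -0.0394 with KCl replicate 1 left out. The sign turned for the Gm36858 region, to 0.0873 without untreated replicate 1, and for Pcdhgb8, to values between 0.0021 and 0.0117 without untreated replicate 2, KCl replicate 1 or KCl replicate 3.

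In 1 region of the 75, every untreated library and none of the KCl libraries made a call, against 1.01% of all 133337 regions. It lay between beta and gamma (37565057 to 37565399), 46895 bp after the start of Pcdhb22, in no other annotated gene than the read-through loci that span the cluster, at heights of 10, 13 and 11. The reverse pattern, a call in each KCl library alone, was found for 0 cluster regions, against 0.0367% of all regions. The gap between beta and gamma also held a region at Slc25a2, which encodes a mitochondrial ornithine carrier (37638452 to 37639033), with 24, 34 and 29 untreated and 44, 16 and 19 with KCl. A region at Taf7, which encodes a subunit of the general transcription factor TFIID, was called in 3 libraries at 10 to 16.

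Genes that act on or with the clustered protocadherins were looked up in the same test. All 15 regulators of promoter choice and silencing, among them Ctcf, the cohesin subunits and the DNA methyltransferases, had a region in the gene or within 1 kb of it, 65 in total, with the most in Dnmt3a and Smchd1 (10 each). Of 11 tested regions of these genes 0 passed, with 4 above and 7 below the median of all regions. Of 14 signalling and trafficking partners, 13 had a region, the most in Cyfip2 (18), a subunit of the WAVE actin regulator, and Marcks had none. Of their 12 tested regions 0 passed, with 6 above and 6 below. Of 12 non-clustered protocadherins, 11 had a region, 118 in total with 61 in the very long gene Pcdh15, and the short Pcdh8 had none. Of their 18 tested regions 0 passed, with 8 above and 10 below. A region within 1 kb of either gene end was found for 4 of 15 regulators, 3 of 14 partners and 3 of 12 non-clustered protocadherins. Regions of 5mC do not measure expression, so markers cannot check the labelled cell type here. A region at a gene end was present in 3 of 7 neuronal, 1 of 5 astrocyte, 3 of 6 oligodendrocyte and 1 of 4 microglial marker genes. The share of all genes with a region is not given here. The counts of genes with a region therefore do not set any of these lists apart from other genes.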

How the data were processed

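Peaks were deposited as 13 tracks, per the file headers: called intervals and a summit with a whole-number height of at least 6 for each of 6 libraries, and 1 track of active regions, the outer bounds of merged intervals. Heights are the authors' own peak scores, and their scaling is not stated. The submitters' processing notes name BWA, SICER and mm10, and a company built the libraries and analysed them, per the labels' protocols. Depth is unknown, since no read totals are given. The libraries held 34834 to 93470 intervals.

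Each region took the highest summit per library. Gene starts and ends came from RefSeq for GRCm38, which has the coordinates of mm10. Alpha and gamma genes share their far ends, which gives their direction, and beta genes were read the same way. Exons were not used. Regions called in all 6 libraries whose mean height reached the 25th percentile were compared as log2(height + 1), a scale that understates changes of low regions, in limma 3.58.1 (R 4.3.3) with a variance trend and Benjamini-Hochberg adjustment over 20537 regions. The steps were tested on simulated data. The simulated heights for limma held no shift of whole libraries and no missing calls, unlike the heights analysed here. Single values per library were compared by exact permutation tests.

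Regions named are the 5 with the lowest p in each direction (4 were higher), the 5 highest per array, those called in 1 group only, those at shared ends, and those of C-type genes and Pcdhb1. Others were chosen after their values were seen. Members and lists were chosen with earlier results of these data known. Deviations of libraries with the same replicate number correlated at 0.113, 0.108 and 0.114, above the limit of 0.1 for pairing, and those of different numbers at -0.0882 to -0.0137. No label explains the numbers. The read-through loci Gm37013, Gm38666 and Gm38667 span the cluster and were not counted as members.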

Additional observations from a re-analysis of the deposited data

How the results depend on the processing

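Over 21 results and 252 alternatives, 224 were counted as unchanged. For most results this meant the same direction and side of the threshold. For numbers of regions past the limma threshold it meant the same number. For the median relative log2 change of cluster regions it meant a value within 0.0724 of the main one. Without untreated replicate 2 that median changed sign, from -0.012 to 0.034, and still counted as unchanged. Part of the count of 224 was fixed in advance. Median centring leaves relative log2 changes as they are, and a replicate block leaves differences between the groups as they are. No permutation test of KCl against untreated could give a p under 0.1. Leaving out 1 library at a time, the KCl minus untreated difference ranged from -7.17 to 1.83 for cluster regions called, from -11.1 to 0.263 for mean height, from -0.0636 to 0.0525 for mean log2 height relative to all regions and from -0.575 to 2.01 percentage points for starts with a region within 1 kb. The same ranges were -0.234 to 0.310 regions per 100 kb for gamma minus beta, 31.2 to 33.0 regions per Mb for the cluster minus all chromosomes (exact permutation p = 0.0625, the smallest that 5 libraries can give), -0.412 to 0.0873 (log2) for the region 14821 bp after the start of Pcdha7 and -0.367 to 0.0117 for Pcdhgb8. With the 34834 highest intervals of each library, the difference in cluster regions called was 1 and the differences per 100 kb were -1.25 for beta minus alpha, -1.50 for gamma minus alpha and -0.248 for gamma minus beta. Counted as covered bases per 100 kb, these were -1150, -1392 and -242. Over regions called in at least 4 libraries the median relative log2 change of cluster regions was -0.0881. The cause of these shifts was not tested.

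With the replicate number as a block, paired libraries gave the same difference of -3 cluster regions (exact permutation p = 0.5) and 0 cluster regions past the limma threshold (lowest adjusted p = 0.857). It changed no call between KCl and untreated. The comparisons within libraries, of arrays and of the span with the genome, were not run with a block and treat the 6 libraries as independent. Without KCl replicate 1, 2 of 34 tested cluster regions were lower at an unadjusted limma p under 0.05. Over the whole genome, 4325 of 20796 tested regions were lower at that limit. The lowest limma adjusted p among the cluster regions was 0.189. Unknown read depth, reads shared between similar genes, unmatched CpG content and regions without a call in KCl replicate 3 limit what the heights can show.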
